A study of Rattus norvegicus with 8 samples.

Results

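The myosin heavy and light chain genes were followed in the hypothalamus of female and male rats. They were the genes whose array names begin with Myo, Myh or Myl and a digit, without Myh11, and they came to 38 of the 26583 gene names on the array, with 46 probes on 73 spots. The females, 4 animals in estrus, and the males, 4 animals, were Sprague Dawley rats of 3 to 4 months, untreated and housed singly, and the females' cycle stage cannot be told apart from their sex. Female 1 shared array 1 with male 1, and so on to array 4, in opposite dyes, with the females in Cy3 on arrays 1 and 3 and in Cy5 on arrays 2 and 4. All values are log2 levels in a sample's own dye channel or log2 ratios of female over male within an array, so 1 unit is a doubling.

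Myosins are motors that move along actin filaments on ATP. Class II myosins pair heavy chains with essential and regulatory light chains and assemble into filaments that contract muscle or, in nonmuscle forms, tense the cell cortex, and the light chains are switched by kinases, some of them activated by calcium. The unconventional classes work mostly as single motors or dimers: class I tethers membrane to actin, class V carries vesicles and, in neurons, receptors and endoplasmic reticulum into dendritic spines, class VI runs towards the opposite filament end in endocytosis, class VII and related myosins serve stereocilia and filopodia, and class IX carries a signalling domain in its tail. In bulk tissue such as this, fewer cells of a type and less RNA per cell cannot be told apart.

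Each gene was read by probes of 60 bases, and 9 of them are shown as the array files list them, 5′ to 3′. The first 4 come from the 3′ end of the coding sequence of muscle heavy chains, where the rod is repetitive and conserved between paralogs, and they show how far a probe for one chain resembles the next. Capitals mark the longest run identical to the Myh6 probe, and in Myh6 itself the run identical to the Myh13 probe.
Myh6: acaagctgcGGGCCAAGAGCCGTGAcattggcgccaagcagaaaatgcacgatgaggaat
Myh13: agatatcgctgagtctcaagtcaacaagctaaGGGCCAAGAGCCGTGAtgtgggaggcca
Myh8: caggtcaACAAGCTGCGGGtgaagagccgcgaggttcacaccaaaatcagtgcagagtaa
Myh3: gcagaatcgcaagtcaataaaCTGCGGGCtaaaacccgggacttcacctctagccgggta

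On the rn4 build these probes lie at chr15:33044576-33044983, on the minus strand, for Myh6, at chr10:54086927-54086986 for Myh13, at chr10:54002239-54002298 for Myh8 and at chr10:53800042-53800098 for Myh3, the last 3 on the plus strand. The Myh6 and Myh13 probes shared a run of 16 bases and matched at 29 of the 37 bases they could be aligned over without gaps, or 78.4%. Myh8 and Myh3 matched Myh6 at 60.4% and 61.4% of aligned bases, with runs of 12 and 8 bases. Signal from one muscle heavy chain on another's probe was not measured, so the values of this group are uncertain as to paralog.

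The next 5 probes belong to other members whose values are given below. Capitals mark the stop codon that ends the Myo1f probe, and the others are in lower case throughout.
Myo1f: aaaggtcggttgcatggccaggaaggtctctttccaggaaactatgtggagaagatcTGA
Myo5b: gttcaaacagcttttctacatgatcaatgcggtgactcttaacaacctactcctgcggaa
Myh14: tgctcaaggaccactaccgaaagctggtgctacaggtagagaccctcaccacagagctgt
Myl9: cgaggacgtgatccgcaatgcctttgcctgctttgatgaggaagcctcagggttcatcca
Myl6l: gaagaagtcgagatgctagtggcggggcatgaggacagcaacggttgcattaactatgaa

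Their rn4 positions are chr7:16124820-16124879 for Myo1f, chr18:71571043-71571102 for Myo5b, chr3:147192749-147193232 for Myl9, all plus strand, and chr1:95087809-95089521 for Myh14 and chr7:1773836-1773895 for Myl6l, both minus strand. The Myl9 and Myh14 probes span 484 and 1713 bases of genome for 60 bases of transcript and so cross exon junctions. Myl6l is an older name that the reference table gives as a synonym of Myl6, and its other probe shares 49 of 60 bases with the Myl6 probe, so Myl6 and Myl6l are 1 gene measured by 3 probes. Counts of genes go by the names on the array and count this gene under both names.

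Of the 46 probes, 35 were well above background in all 8 samples, against 68.6% of all probes, and 39 probes of 32 genes were bright enough in all 4 samples of at least 1 sex to be tested. The genes not tested were muscle chains and motors of epithelia and hair cells: the fast skeletal heavy chain Myh4, the muscle light chains Myl1, Myl2 and Myl3, the brush border motor Myo1a and the hair cell motor Myo15, along with 1 of the 2 probes of Myh2. Myl2, the ventricular regulatory light chain, was well above background in 0 of 8 samples, with levels of 6.45 to 6.65. Another 6 genes that current tables call myosins stood on the array under older names, Myl4, Myl11, Myl12a, Myl12b, Myo18a and Myo19, and were not members. Of 16 hypothalamic marker genes, 14 were well above background in all 8 samples.

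Male replicate 2 stood apart from the other 7 samples. Its hypothalamic markers lay at a median of -1.81 from their means over the 8 samples, its meningeal markers at -1.48, and its markers of cortex, hippocampus and striatum at 1.96, while the other samples ranged from -0.05 to 0.64, from -0.37 to 1.16 and from -0.76 to 0.31. Samples in Cy3 had a median net signal of 502 to 530 and those in Cy5 one of 148 to 272, and 77.6% to 87.0% of spots were well above background. On every array the ratio of red to green net signal rose down the array, from the first to the last of 10 bins of its 532 rows, by 1.03 to 1.38 on the log2 scale. Values are therefore also given with this trend over rows removed, an alternative chosen after the data were seen.

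No myosin gene passed the test for a sex difference. At a Benjamini-Hochberg adjusted p under 0.05 in limma, 0 of 32 genes were called, and so were 0% of the 14603 genes tested on the array; the lowest adjusted p of a member, 0.555, was also the lowest of all probes. At an unadjusted p under 0.05, 2 of 32 genes were higher in females, Myo1f and Myo9b, beside 5.01% of all genes, and 0 were lower, beside 3.51%. A fit of the 8 channels without the array as a block also called 0 after adjustment. At an unadjusted p under 0.05 it had 2 higher and 1 lower, beside 604 and 482 of 14607 genes. With the row trend removed the numbers were 1 higher and 0 lower, beside 3.29% and 5.12% of all genes. Without array 1, 2, 3 or 4 the number higher was 0, 0, 1 and 5, beside 1.18%, 4.19%, 1.4% and 17.4% of all genes in those fits, and the number lower was 0, 0, 0 and 2, beside 2.89%, 3.87%, 0.72% and 13.7%. Without replicate 4, 1 gene passed the adjusted threshold, Myo5b, beside 7.55% of all genes.

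The myosins lay close to equal levels in the sexes. Their median log2 ratio was 0.03, against 0.02 over all genes, with 19 genes above 0 and 13 below, and 56.2% of all genes were above 0. The median size of the ratio, sign ignored, was 0.067 for the myosins and 0.103 for all genes. No member gene differed by 1.5-fold or more, where 286 of 14603 genes did, or 1.96%. Myh11, a myosin heavy chain left out of the members, did, at 1.54-fold. The number of members past 1.5-fold depended on the processing and on the arrays kept. It was 1 with the scanner's log ratio (Myh2), beside 7.44% of all genes. In the authors' deposited table it was 3 of the 24 myosin genes tested there (Myh14, Myo5b and Myo9a), beside 7.37%. Without replicate 4 it was 1 (Myo5b), beside 6.22%. Fitted ratios ran from -0.39 for Myo5b to 0.24 for Myl9, and 3 of 39 probes had the same sign on all 4 arrays, against 11.0% of all probes. The number of arrays, 4, limits the precision of each of these ratios, and a p above the threshold does not show that levels were the same.

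**Figure D1:**
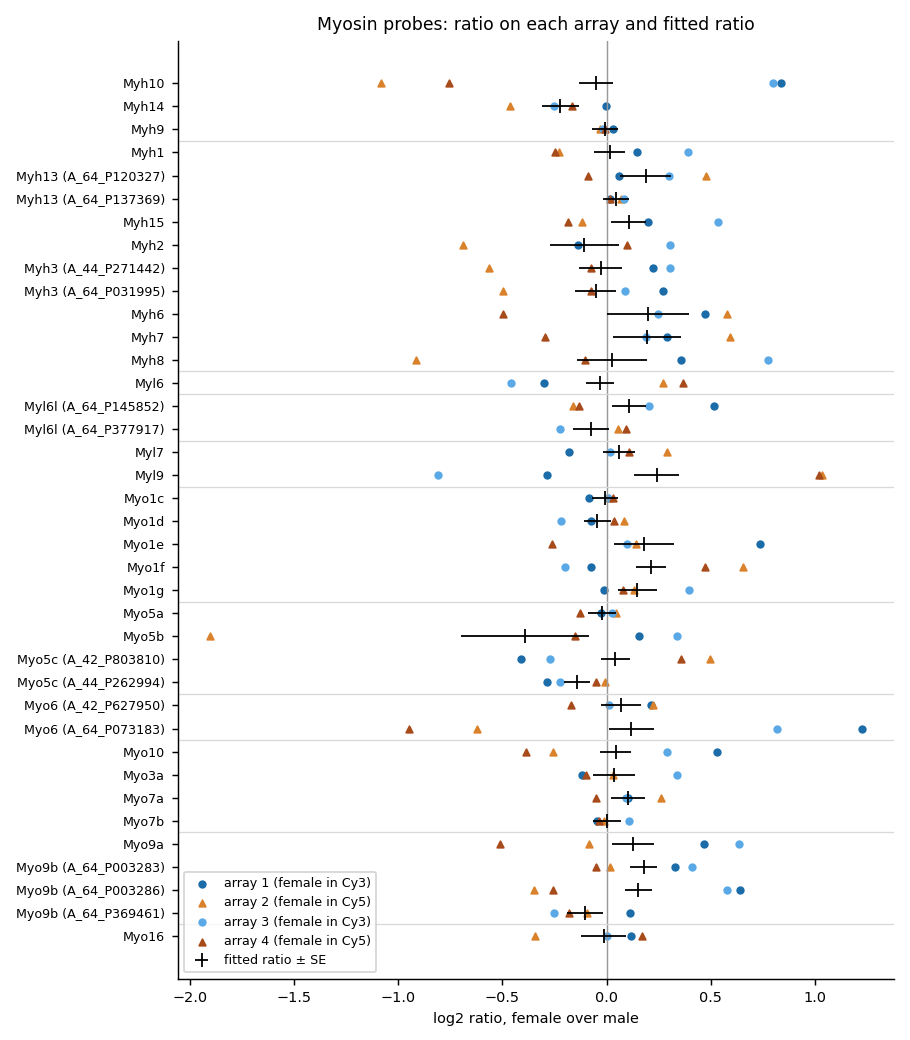
Log2 ratio of female over male on each of the 4 arrays (points) and fitted ratio with its SE (black) for 38 of the 39 tested myosin probes, grouped by role; 1 probe of Myl6l was fitted on 3 arrays. Fitted ratios lie between -0.39 and 0.24, and for probes such as Myh10 and Myo6 A_64_P073183 the points of arrays 1 and 3 lie on the other side of 0 from those of arrays 2 and 4.

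The class I motors included the member with the lowest p. Myo1f, a motor with a tail SH3 domain found mainly in cells of the immune system, had log2 levels of 8.70, 8.98, 8.62 and 8.89 in females 1 to 4 and of 8.78, 8.33, 8.82 and 8.42 in males 1 to 4. Its ratios on arrays 1 to 4 were -0.08, 0.65, -0.20 and 0.47, higher where the female was in Cy5. The fit set these apart as a dye effect of -0.35, Cy3 over Cy5, and a female over male ratio of 0.21 ± 0.07 (SE, 4 arrays), 1.16-fold, with an unadjusted p of 0.038 and an adjusted p of 0.555 in limma. With the dye effect taken off, the females lay at 8.72 to 8.88 and the males at 8.50 to 8.65, so the groups did not overlap. With the row trend removed the ratios were 0.12, 0.40, 0.03 and 0.23, all above 0, and the fit gave 0.19 ± 0.07 with an unadjusted p of 0.039.

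Myo1g, a class I motor of blood cells, was measured at 7.83, 7.64, 8.22 and 7.64 in the females and 7.84, 7.51, 7.83 and 7.56 in the males. Female 3 was the highest of the 8, and the sexes overlapped, with ratios of -0.01, 0.13, 0.39 and 0.08 and a fitted ratio of 0.15 ± 0.09 (SE). Without replicate 3 it was 0.05. Markers of microglia and macrophages, all 10 of them well above background in all 8 samples, had a median ratio of 0.21, with 7 of 10 above 0 beside 56.2% of all genes, and summed levels of 35567 to 42634 in females and 32191 to 36671 in males. None was higher at an unadjusted p under 0.05 in limma, and 1 was lower. Their part in the values of Myo1f and Myo1g was not tested.

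Of other class I motors, Myo1c, a membrane tether found in many cells, Myo1d, and Myo1e, an endocytic motor, had fitted ratios from -0.04 for Myo1d to 0.18 ± 0.14 for Myo1e. Array 1 alone gave Myo1e a ratio of 0.74, and the other 3 arrays gave -0.26 to 0.14, while with the row trend removed arrays 1 to 4 gave -0.21, 0.81, -0.62 and 0.37 and the fitted ratio was 0.09.

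Class IX held the other gene under an unadjusted p of 0.05. Myo9b, a motor with a signalling domain in its tail, was read by 3 probes. The brightest, A_64_P003283 at chr16:18519158-18519217, had levels of 11.57, 11.52, 11.61 and 11.35 in females and 11.25, 11.50, 11.20 and 11.40 in males, with ratios of 0.33, 0.02, 0.41 and -0.05. Its fitted ratio was 0.18 ± 0.06 (SE), 1.13-fold, with an unadjusted p of 0.046 and an adjusted p of 0.555 in limma, and after the dye effect was taken off the females lay at 11.45 to 11.61 and the males at 11.30 to 11.40, with no overlap. With the row trend removed the ratio was 0.14 and the unadjusted p 0.093, past the 0.05 line, and in the authors' deposited table the ratio was 0.07.

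The second Myo9b probe, A_64_P003286, started 813 bases of genome away and was also higher in females in the fit. Its ratios were 0.64, -0.35, 0.58 and -0.26, the fitted ratio was 0.15 ± 0.06, and the dye-removed levels of 9.12 to 9.16 in females and 8.94 to 9.05 in males did not overlap. With the row trend removed this ratio was 0.06. The third, A_64_P369461, had a ratio of -0.10 ± 0.09, from levels of 7.08, 7.08, 7.77 and 6.92 in females and 6.97, 7.18, 8.02 and 7.10 in males, and both animals of array 3 were high on it. Over all member probes, dye-removed levels of the sexes did not overlap at 3 of 39, the probe of Myo1f and these 2 of Myo9b, against 6.46% of all probes, and with the row trend removed at 1 of 39, Myo1f, against 6.29%. Myo9a, the close relative of Myo9b, had a fitted ratio of 0.13 ± 0.10.

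**Figure D2:**
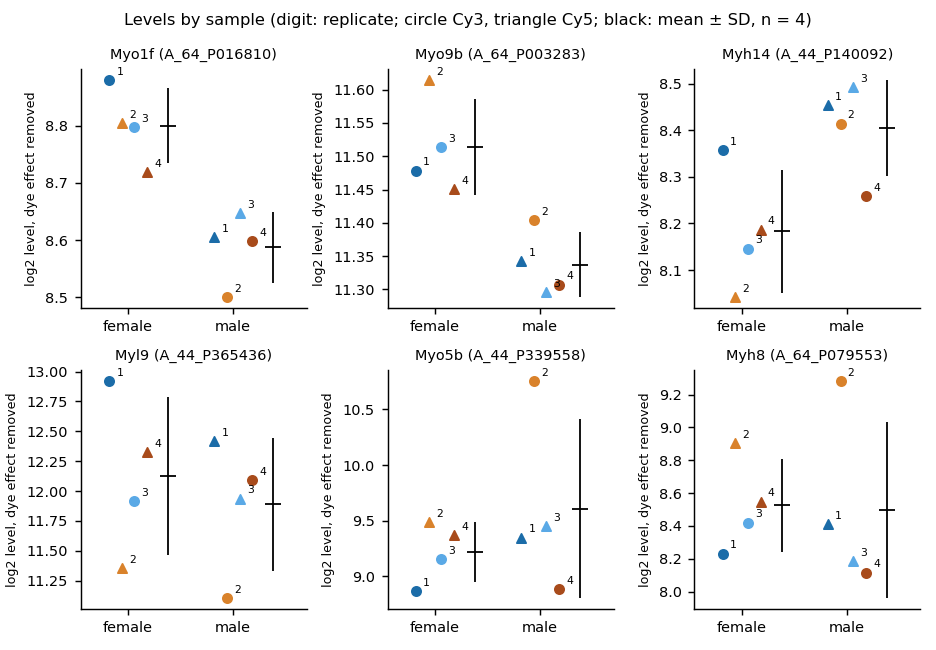
Log2 level of 6 myosin probes in each sample after the fitted dye effect was taken off, by sex, with the mean and SD of the 4 animals of a sex in black. Females and males do not overlap for Myo1f and Myo9b, overlap for Myh14 and Myl9, and male 2 is the highest of 8 for Myo5b and Myh8.

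The 3 nonmuscle class II heavy chains had fitted ratios below 0, where 56.2% of all genes were above 0. Those of Myh10 and Myh9 lay within their SE of 0. Myh14, the chain of nonmuscle myosin IIC, had the lowest p among members that were lower in females, with levels of 8.40, 8.0, 8.19 and 8.14 in females and 8.41, 8.46, 8.45 and 8.30 in males. Ratios were -0.00, -0.47, -0.25 and -0.17, the fitted ratio was -0.22 ± 0.09 (SE), and the unadjusted p of 0.066 in limma did not reach 0.05. The groups overlapped, since female 1 lay within the range of the males. Without replicate 2 the ratio was -0.15, with the scanner's log ratio -0.39 and in the authors' deposited table -0.59. Myh10, the chain of nonmuscle myosin IIB and the main form in neurons, had levels of 12.07, 11.34, 12.14 and 11.39 in females and 11.23, 12.42, 11.34 and 12.15 in males, high in every Cy3 sample and low in every Cy5 sample. Its fitted ratio was -0.05 ± 0.08 and its dye effect 0.87. Myh9, the chain of nonmuscle myosin IIA, stayed between 6.88 and 7.24 in all samples with a ratio of -0.01 ± 0.06. At dim levels such as these, the offset of the background correction pulls ratios towards 0.

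Of the light chains that pair with nonmuscle and smooth muscle myosin, none passed the test in limma. Myl6, the essential light chain of nonmuscle and smooth muscle myosin, had levels of 16.18, 16.48, 15.98 and 16.40 in females and 16.48, 16.20, 16.44 and 16.04 in males, and a ratio of -0.03 ± 0.07. The coding probe named Myl6l gave 15.24, 15.03, 14.92 and 14.73 in females and 14.72, 15.19, 14.71 and 14.86 in males, and a ratio of 0.11 ± 0.08. The overlapping probe of that name, an outlier spot on array 1 and so fitted on 3 arrays, gave 16.52, 16.11 and 16.22 in females 2 to 4 and 16.47, 16.33 and 16.13 in males 2 to 4, and a ratio of -0.07 ± 0.09. Its array ratios of 0.05, -0.22 and 0.09 and those of the Myl6 probe on the same 3 arrays, 0.27, -0.46 and 0.37, had the same signs.

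Myl9, the regulatory light chain of smooth muscle and nonmuscle myosin, had the highest ratio of the tested members and the widest spread among light chains. Levels were 12.53, 11.75, 11.52 and 12.72 in females and 12.81, 10.71, 12.33 and 11.70 in males. The ratios, -0.28, 1.03, -0.81 and 1.02, followed the dye, with a fitted ratio of 0.24 ± 0.11 (SE), a dye effect of -0.79 and an unadjusted p of 0.087 in limma. Once the dye effect was taken off, females spanned 11.35 to 12.92 and males 11.11 to 12.42. Male 2 was the lowest animal and female 1 the highest. Leaving out 1 array moved the ratio to between 0.11 and 0.37.

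Markers of smooth muscle and of the meninges were set beside Myl9. Of 10 smooth muscle and pericyte markers, 8 had ratios above 0, beside 56.2% of all genes. At an unadjusted p under 0.05 in limma 3 of them, Myh11 included, were higher in females, beside 5.01% of all genes. Their summed levels were 8627 to 21680 in females and 6674 to 13346 in males, and their median deviation was lowest in female 2, at -0.29, next in male 2, at -0.25, and highest in female 4, at 0.29. Meningeal markers had a median ratio of 0.39, with 7 of 7 above 0, and were highest in female 1 and lowest in male 2, as Myl9 was. Other marker lists also had median ratios away from 0. These were 0.67 for hypothalamus, 0.27 for pituitary, 0.26 for ependyma and choroid plexus and 0.11 for skeletal and cardiac muscle. They were -0.51 for cortex, hippocampus and striatum, -0.26 for oligodendrocytes and -0.22 for neurons. For astrocytes and endothelium they were -0.09 and -0.03. Male 2 deviated by -1.81 on the hypothalamic list and by 1.96 on that of cortex, hippocampus and striatum, and it enters these medians. The part of any of these tissues and cells in the Myl9 values was not tested. Myl7, the atrial regulatory light chain, gave 7.06 to 7.44 in the 8 samples and a ratio of 0.06 ± 0.08.

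Among the muscle heavy chains, 6 of 8 tested genes were above 0 and 2 below, beside 56.2% of all genes above 0. Of the 6, Myh15 passed the filter only through the females. None of the 8 had an unadjusted p under 0.05 in limma, and with the row trend removed 4 were above and 4 below. Myh13, the chain of extraocular muscle, led by p: its probe A_64_P120327 had levels of 8.27, 8.39, 8.42 and 8.32 in females and 8.20, 7.91, 8.12 and 8.41 in males, ratios of 0.06, 0.48, 0.30 and -0.09, and a fitted ratio of 0.19 ± 0.12 (SE). Without replicate 2 it was 0.04. The second Myh13 probe had a ratio of 0.05 ± 0.06. The cardiac chains Myh6 and Myh7, neighbours on chromosome 15, had ratios of 0.20 ± 0.20 and 0.19 ± 0.16, with array ratios of 0.47, 0.58, 0.25 and -0.50 for Myh6 and 0.29, 0.59, 0.19 and -0.29 for Myh7, of the same sign on every array. The remaining chains were Myh1 (0.01), Myh2 (-0.11), Myh3 (-0.03 and -0.05 at its 2 probes), Myh8 (0.03) and Myh15 (0.11), the last well above background in 4 females and 2 males. Of 12 genes typical of striated muscle, 11 were on the array, 10 were tested and 9 were well above background in all 8 samples, and Ttn, the giant spring protein of the sarcomere, was above background in 0 of 8 samples.

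Among the class V motors the widest difference lay in 1 animal. Myo5a, the main vesicle motor of neurons, was level across samples at 12.17 to 12.34, with a ratio of -0.02 ± 0.07. Myo5b, a motor of recycling endosomes that brings AMPA receptors into spines, had levels of 9.18, 9.17, 9.47 and 9.05 in females and 9.03, 11.07, 9.13 and 9.20 in males. Male 2 was therefore 1.60 above the next sample, and array 2 gave -1.90 where arrays 1, 3 and 4 gave 0.15, 0.34 and -0.15. The fitted ratio was -0.39 ± 0.31 (SE), with an adjusted p of 0.623 in limma. Without replicate 2 it was 0.05, and without replicate 4 it was -0.83 with an adjusted p of 0.032 on the 3 arrays left, array 2 among them.

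Myo5c, the class V motor of secretory epithelia, was read by 2 probes. A_44_P262994, above background in 3 females and 4 males, passed the filter only through the males. Its levels were 7.06, 6.67, 6.76 and 6.76 in females and 7.34, 6.68, 6.98 and 6.81 in males. Its ratios, -0.28, -0.01, -0.22 and -0.05, were below 0 on all 4 arrays, and the fitted ratio was -0.14 ± 0.06 with an unadjusted p of 0.077 in limma. It was -0.59 with the scanner's log ratio, with an unadjusted p of 0.0099 and an adjusted p of 0.604 in limma, and -0.04 with median centring. The probe with 10 spots had a ratio of 0.04 ± 0.07, and its levels ran from 7.53 in male 2 to 8.88 in male 1.

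The remaining classes held small ratios. Myo6, the class VI motor, is described with the dye effect. Of the motors of filopodia and stereocilia, Myo7a had levels of 8.34, 8.04, 8.42 and 8.34 in females and 8.23, 7.78, 8.33 and 8.40 in males, low in both animals of array 2, with array ratios of 0.10, 0.26, 0.09 and -0.05 and a fitted ratio of 0.10 ± 0.08. Myo3a, Myo7b and Myo10 had ratios of 0.04, 0.00 and 0.04, and Myo3a and Myo10 were above background in 3 females and 4 males. Myo16, a class XVI motor enriched in neurons, gave 8.51, 9.07, 8.59 and 8.75 in females and 8.39, 9.41, 8.59 and 8.58 in males, with ratios of 0.12, -0.34, -0.00 and 0.17 and a fitted ratio of -0.01 ± 0.11. It was highest in male 2 and next in female 2, the animals of array 2.

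Probes deviated more widely from their means in male 2 than in any other sample, the members much as all probes did. The deviation of the 39 member probes from their means over the 8 samples, dye effects taken off, had an SD over probes of 0.42 in male 2 and of 0.12 to 0.24 in the others. Over all probes this SD was 0.41 in male 2 and 0.16 to 0.23 in the others. Male 2 was the highest sample at 11 and the lowest at 15 of 39 probes, or 28.2% and 38.5%, where over all probes it was the highest at 24.3% and the lowest at 26.9%. Above their means in male 2 were Myo5b by 1.34, Myh2 by 0.77, Myh8 by 0.77, the 2 probes of Myh3 by 0.67 and 0.60, and Myo16 by 0.64. Below them were Myl9 (-0.90), the 10-spot probe of Myo5c (-0.55), Myo7a (-0.45), Myh6 (-0.41) and Myh7 (-0.41).

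Among the muscle heavy chains, the embryonic Myh3, the perinatal Myh8 and the fast Myh2 were high in male 2, Myh6, Myh7 and, at -0.34, 1 probe of Myh13 were low in it, and Myh1, Myh15 and the second Myh13 probe lay near their means, at 0.10, -0.01 and -0.08. For Myh8 the levels were 8.50, 8.64, 8.69 and 8.28 in females and 8.14, 9.55, 7.92 and 8.38 in males, so that male 2 stood 0.86 above the next sample. The same animal had the high markers of cortex, hippocampus and striatum and the low hypothalamic and meningeal markers given above. Their part in these deviations was not tested. Leaving out replicate 2 took the ratio of Myo16 to 0.11 and that of Myh10 to 0.03.

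**Figure D3:**
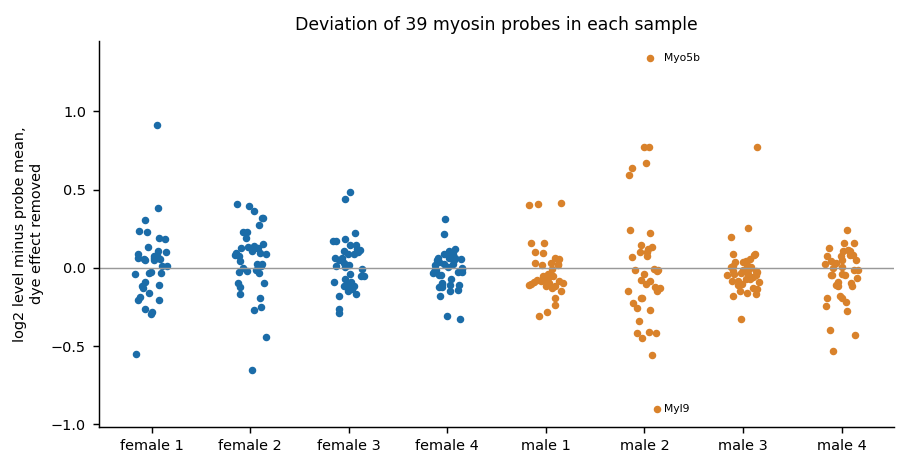
Log2 level of each of the 39 tested myosin probes minus its mean over the 8 samples, dye effect taken off, by sample (females blue, males orange; 1 point a probe). Male 2 spreads from -0.90 for Myl9 to 1.34 for Myo5b, with an SD of 0.42 against 0.12 to 0.24 in the other samples. Over all probes, not drawn, the SD is 0.41 against 0.16 to 0.23.

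For several members the dye effect was larger than the sex difference. The dye effect, Cy3 over Cy5, passed an adjusted p of 0.05 in limma at 6 of 39 member probes, beside 12.7% of all probes, and at 18 of 39 the ratio changed sign with the dye orientation, against 41.8% of all. With the row trend removed the sign followed the dye at 12 of 39, against 25.9% of all. The 6 were Myo6 A_64_P073183 (0.90), Myh10 (0.87), Myl9 (-0.79), Myo9b A_64_P003286 (0.46), the 10-spot probe of Myo5c (-0.38) and Myl6 (-0.35). Since the same 4 arrays set this term, a difference between the animals of arrays 1 and 3 and those of arrays 2 and 4 enters it.

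The ratios of Myo6 differed by the row of the spot. Its probe A_64_P073183, 1 spot in row 29, had levels of 11.81, 10.92, 11.72 and 10.89 in females and 10.59, 11.54, 10.91 and 11.84 in males, with ratios of 1.22, -0.62, 0.82 and -0.95. The probe A_42_P627950, which starts 110 bases away, averages 10 spots between rows 33 and 492, and it gave 0.21, 0.22, 0.01 and -0.17. Among those 10 spots of one sequence the ratio on array 1 was 1.19 in row 33 and -0.21 in row 492, and the SD over the spots was 0.47 to 0.60 on the 4 arrays.

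With the row trend removed, the SD over the Myo6 spots was 0.06 to 0.15, and the dye effect of the row 29 probe was 0.04 in place of 0.90. The 10 spots of Myo1d and of Myo5c likewise went from SDs of 0.18 to 0.26 and 0.13 to 0.22 to SDs of 0.046 to 0.055 and 0.050 to 0.099. The fitted sex ratio of Myo6 was 0.12 ± 0.11 and 0.07 ± 0.10 at the 2 probes, and 0.02 at each with the trend removed. After its removal Myh10 had a dye effect of 0.41 and Myl9 one of -0.57. Then 0 of 39 member probes and 0 of 21995 probes passed the adjusted threshold, with 8 and 3236 at an unadjusted p under 0.05 in place of 15 and 7150. Across all probes the correlation of dye effect with array row was -0.64 before and 0.05 after, a description over probes that share the same 4 arrays.

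**Figure D4:**
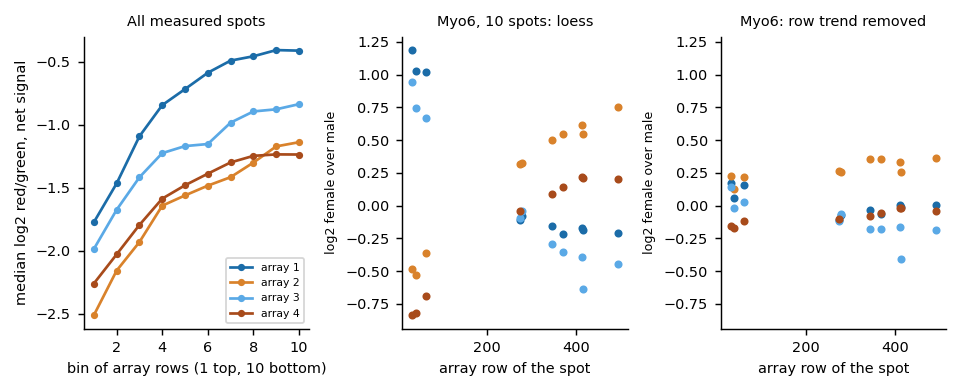
Left, median log2 red over green net signal in 10 bins of array rows, by array; middle and right, log2 female over male ratio at the 10 spots of the Myo6 probe A_42_P627950 by array row, after loess and with the row trend also removed, in the same colours. The 4 curves rise by 1.03 to 1.38, and the Myo6 spots, with SDs of 0.47 to 0.60, close to SDs of 0.06 to 0.15.

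**Figure D5:**
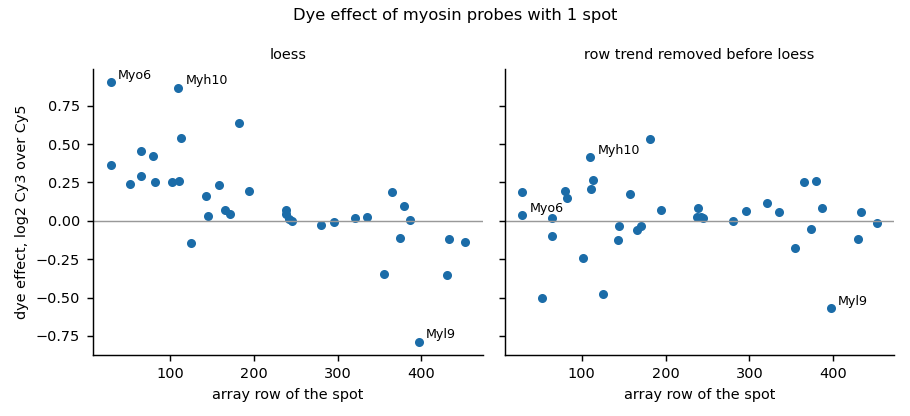
Fitted dye effect of the myosin probes with 1 spot against the array row of the spot, after loess (left) and with the row trend removed before loess (right). Myo6 falls from 0.90 to 0.04, Myh10 from 0.87 to 0.41, and Myl9 goes from -0.79 to -0.57.

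The regulators and partners of myosin gave no call either. Of 67 listed names 61 genes were tested, 27 above 0 and 34 below, with a median of -0.05, and 0 passed the adjusted threshold in limma. These counts include the myosin chains Myh11 and Myl11, which were on this list and not among the members, and Myl11 had a ratio of 0.10. At an unadjusted p under 0.05 there were 2 higher and 2 lower, 4 of 61 beside 8.52% of all genes. On 3 arrays, without replicate 4, 4 passed the adjusted threshold and 21 an unadjusted p under 0.05, beside 7.55% and 31.1% of all genes in that fit. The 2 that were higher were Myh11 and Tpm2. Myh11, the heavy chain of smooth muscle myosin and also 1 of the smooth muscle markers above, had ratios of -0.21, 1.83, -0.60 and 1.47. Its fitted ratio was 0.62 ± 0.11 (SE), 1.54-fold, with an unadjusted p of 0.0040 and an adjusted p of 0.555 in limma. The tropomyosin Tpm2, a filament protein of muscle, had ratios of -0.18, 1.83, -0.90 and 1.62 and a fitted ratio of 0.59 ± 0.14. Both followed the dye as Myl9 did, with dye effects of -1.03 and -1.13, and both were lowest in male 2, at 9.52 and 8.99.

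The 2 that were lower were Rhob, an immediate early gene, with ratios of 0.04, -1.27, -1.44 and -1.06 and a fitted ratio of -0.93 ± 0.26, and Optn, an autophagy receptor that binds Myo6, with -0.15, -0.29, -0.29 and -0.18 and -0.22 ± 0.07. Optn was below 0 on all 4 arrays as measured, and at 0.03 on array 1 with the row trend removed. Next by p were Tom1, an endosomal partner of Myo6, at 0.20, and Sytl4, a vesicle protein that binds Rab27, at -0.33. The phosphatase genes had 3 genes above and 4 below 0, none at an unadjusted p under 0.05 in limma, and the adaptors of classes V and VI had 9 above and 8 below. Calmodulins and dynein light chains, which serve as light chains of unconventional myosins, had 1 above and 5 below, with a median of -0.13, and their median deviation in male 2 was 0.39 against -0.18 to 0.06 elsewhere.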

How the data were processed

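The scanner output came from Agilent Feature Extraction 10.7.3.1, per the submitters' processing notes. Spot and local background signals are deposited intensity values, and the log ratio, an alternative, is log10 of red over green, per the file headers. The authors' deposited table of log2 values served as another. Mean signals were corrected with normexp (offset 50) and normalized by loess within arrays, outlier spots were left out (931 to 1096 an array), spots of a probe averaged, and levels set on a common scale with Aquantile in limma 3.58.1 (R 4.3.3, with the data.table package at 1.17.8; figures with Python 3.11.15 and matplotlib 3.10.9). Probes were tested where more than 0.5 of the spots exceeded background clearly in each of the 4 females or each of the 4 males. The ratio was fitted with terms for sex and dye (lmFit, eBayes), with Benjamini-Hochberg adjustment over 21995 probes. A gene is its brightest probe. The offset pulls the ratios of dim probes towards 0. The functions were tested on simulated data.

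Female and male of a number share an array, which is the pairing. Their deviations from the sex means correlated at 0.57, 0.65, 0.42 and -0.05 on arrays 1 to 4.

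Members and lists were chosen with earlier results of these data known. Full values were given for the 5 lowest p in each direction, the lowest p in each role, probes of a gene of opposite sign at least 0.3 apart (there were none), the 3 strongest dye effects and, of regulators, the 3 lowest p in each direction. Other members, such as Myh8, were described after their values were seen. Values of 1 member are not reported here.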

Additional observations from a re-analysis of the deposited data

Results flagged for a closer look

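Of 76 groups of 4 dye-removed levels, 5 held 1 sample far from the other 3, and chance alone marks about 1 in 20 groups. Myh3 was at 8.15 in male 2 at probe A_44_P271442, against 7.31 to 7.44 in the other males, and at 8.19 at probe A_64_P031995, against 7.24 to 7.37, so both probes set the same animal apart. Myo9b A_64_P369461 was at 8.04 in male 3, against 6.99 to 7.16 in the other males, and the female of the same array was the highest female at 7.75. Myh15 was at 6.82 in female 1, against 7.10 to 7.12 in the other females, and Myo1c at 7.04 in male 1, against 6.95 to 6.97, both small distances.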

How the results depend on the processing

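Counts and medians over genes were recomputed under 17 other settings, the row trend removed among them, and with the mean of a gene's probes, counts past the adjusted threshold also as an unadjusted p with 1.5-fold, and the number of dye effects under 3; single probes had 15 to 18 settings, since some leave a probe untested. The number of myosin genes past the adjusted threshold was 0 in each, except 0 to 1 with 1 array left out. The number higher in females at an unadjusted p under 0.05, 2 as reported, was 0 without the dye term, with an intensity trend and robust prior, without background correction, with median centring and with the scanner's log ratio. It was 1 with all 8 channels required above background, with normexp offset 16, in the authors' value table, with the mean of a gene's probes and with the row trend removed, and 0 to 5 with 1 array left out. Over all genes the number higher was 731 of 14603 as reported, 168 of 14607 without the dye term and 2528 of 14525 without replicate 4. Of 14603 genes it was 569 with the intensity trend and robust prior, 515 without background correction and 244 with median centring. It was 430 with the scanner's log ratio, 652 with normexp offset 16 and 480 with the row trend removed. It was 684 of 13956 genes with all 8 channels required above background and 170 of 12381 genes in the authors' values. It was not counted with the mean of a gene's probes. The number of myosin genes lower in females, 0 as reported, was 1 in the authors' value table, where 24 myosin genes were tested, beside 1089 of 12381 genes. It was 1 without the replicate block, beside 482 of 14607 genes, and 0 to 2 with 1 array left out. The median of the myosin genes stayed between -0.01 and 0.07. For the regulators and partners, the number past the adjusted threshold was 0 to 4 with 1 array left out. An unadjusted p with 1.5-fold was passed by 3 of them, Myh11, Tpm2 and Rhob. This rule was not counted over all genes, of which 1.96% reached 1.5-fold whatever their p. The number of regulators and partners at an unadjusted p under 0.05, 4 as reported, was 2 without the dye term, beside 405 of 14607 genes. In the authors' value table it was 8 of 58 tested, beside 1259 of 12381 genes. With 1 array left out it was 3 to 21, beside 309 to 4524 genes. Their median, -0.05, was -0.089 with the scanner's log ratio, -0.21 in the authors' value table and -0.070 to -0.0071 with 1 array left out. The number of member probes with a dye effect, 6, was 0 with the scanner's log ratio and 0 with the row trend removed. Over all probes it was 2797 as reported and 0 under each of these settings.

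Settings on the filter, the prior or the dye term cannot move the ratio of a probe measured on all 4 arrays. The direction under those settings was fixed in advance, and the lowest adjusted p of a member in limma, 0.555, was far from the threshold. The number that kept both is therefore no measure of robustness. Of 280 recomputed values of the 16 named probes, 271 kept direction and side of the threshold and 8 changed sign. With 1 array left out these were Myo5b (-0.83 to 0.047, above 0 without replicate 2), Myo16 (-0.14 to 0.11, above 0 without replicates 2 and 3), Myh10 (-0.13 to 0.030, without replicate 2), Myl6 (-0.070 to 0.0087, without replicate 3) and Myl6l A_64_P377917 (-0.075 to 0.072, without replicate 3), with median centring Myo9b A_64_P369461 (0.029), and with the mean of the probes Myl6l (0.11). The cause was not tested. The block, each array's pair of animals, changed no call after adjustment. Dim probes, with Cy5 signals lower than Cy3, and 4 arrays limit what could be detected.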
